A study of Caenorhabditis elegans with 47 samples.

Results

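Worms of Caenorhabditis elegans carry an enlarged family of secreted proteins related to hedgehog and an enlarged family of membrane proteins related to its receptor, patched. All genes of the platform annotation with a symbol of the form wrt-, grd-, grl-, ptr- or ptc-number were taken, together with qua-1 and hog-1, which gave 80 of the 17118 genes measured. They are 10 wrt, 12 grd and 30 grl genes, qua-1, hog-1, 2 ptc genes and 24 ptr genes. The genes ptc-2 and grl-32 share their probe sets with other genes, so they were not analysed here.

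RNA of whole worms was measured on 47 Affymetrix arrays, 15 of Abeta worms, 16 of GFP::degron worms and 16 of GFP worms. Abeta is the amyloid peptide of Alzheimer's disease, GFP is a fluorescent protein, and a degron is a stretch of protein that sends its carrier to degradation. Neither the promoters of the transgenes nor other alleles of the strains are named in the labels. Worms of all 3 strains were kept at 16 °C, shifted up to 25 °C when they had entered the third larval stage, and collected at the shift (T0) and 4, 8, 12, 16 and 20 hours after it. There were 4 arrays of each strain at T8 and T16, at T12 there were 4 of Abeta, 5 of GFP::degron and 5 of GFP worms, and each strain had a single array at every other time.

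Hedgehog-related proteins are named for their domains: WRT proteins carry a Wart domain, GRD proteins a Ground domain and GRL proteins a Ground-like domain, and several of the family end in the self-cleaving Hog domain of hedgehog itself. PTC and PTR proteins span the membrane many times and carry a sterol-sensing domain, but worms have no Smoothened, the protein that passes the hedgehog signal on in flies and vertebrates. Many of these genes are active in epidermal cells in step with the larval molts, in which a new cuticle is laid down under the old one, and loss of several of them disturbs molting or growth.

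The deposited intensities ran from a median of 60.1 to one of 108.7 on 46 arrays, and GFP T8 replicate 3, with a median of 20.3, was left out of every value given here unless it is named. Levels are log2(intensity + 1) after each array was set to a common median, so a difference of 1 is a doubling for bright genes and understates the change of dim ones. Epidermal genes were well measured: elt-3, which encodes an epidermal GATA factor, had 7.76 to 8.76 in Abeta, 8.09 to 8.82 in GFP::degron and 7.79 to 8.42 in GFP worms at T16. Of 13 listed epidermal genes 10 were measured, with means from 5.46 to 9.85 over the 46 arrays. The whole worm was measured, so fewer cells of a type and less RNA per cell cannot be told apart, and several listed genes are known from other tissues too, such as ptr-10 and grl-18 in glia and ptc-1 in the germ line.

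The families differed in how far above the dim end of the scale they lay. A mean log2 level of at least 6 was reached by 51 of the 80 genes, and by 9 of 10 wrt, 7 of 12 grd, 12 of 30 grl and 19 of 24 ptr genes, whereas 9711 of all 17118 genes reached it. Levels of different probe sets are not on one scale, so these counts describe how well the genes were measured and not which gene is more abundant. The dimmest was grl-24 with a mean of 2.24, and wrt-8 with 4.79 was the dimmest wrt gene.

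**Figure D1:**
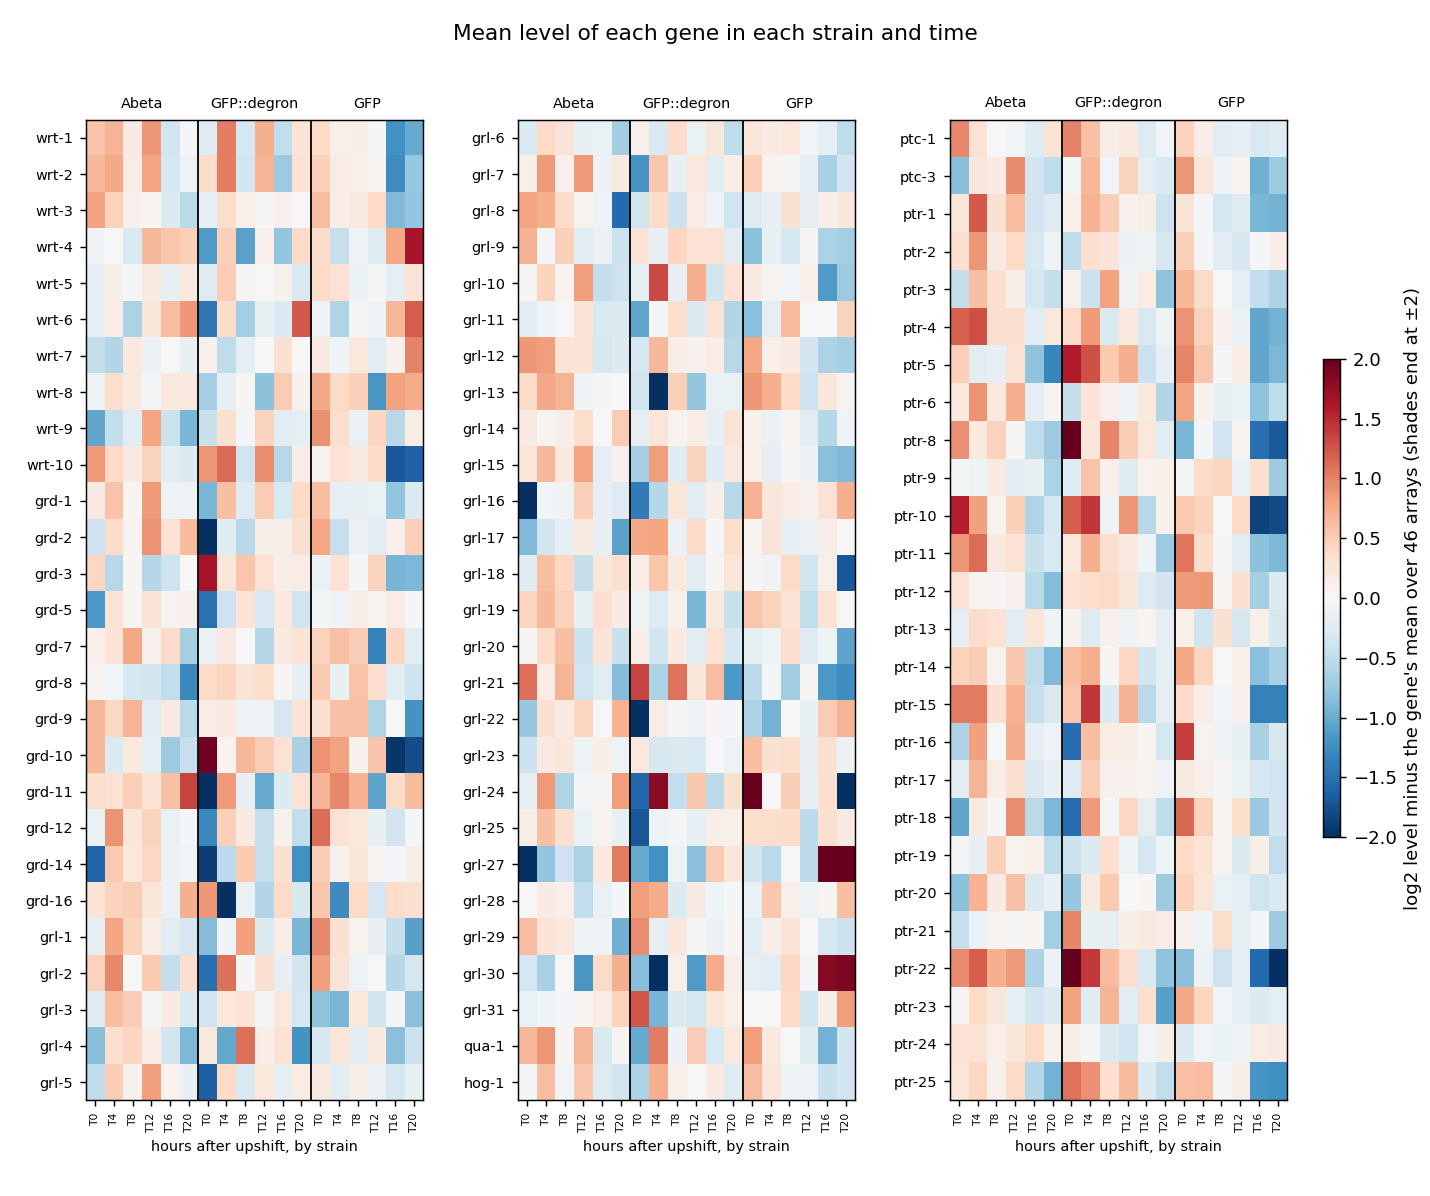
Mean log2 level of the 80 genes in each strain and time, as the difference from each gene's own mean over 46 arrays (colour), with hours after the upshift along the bottom of each strain's block (Abeta, GFP::degron, GFP). T0, T4 and T20 are single arrays, T8 to T16 are means of 3 to 5 arrays. The GFP block is blue at T16 for many wrt and ptr genes and deep red for grl-27 and grl-30.

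Between T8 and T16 the genes reached their highest mean at different times. In Abeta worms 32 genes were highest at T8, 40 at T12 and 8 at T16. In GFP::degron worms 33 were highest at T8, 29 at T12 and 18 at T16, and in GFP worms 42, 25 and 13. The time was the same in all 3 strains for 27 genes, 11 with T8, 12 with T12 and 4 with T16. The T8 set held grd-9, grl-1, grl-3, grl-6, grl-13, grl-18, grl-29, ptr-3, ptr-9, ptr-13 and ptr-23. The T12 set held the receptor-like ptc-3, ptr-5, ptr-10, ptr-14, ptr-15, ptr-18 and ptr-25 beside wrt-9, wrt-10, grd-1, grl-2 and grl-10. The T16 set was wrt-8, grl-27, grl-30 and ptr-24. These times are a description, and most steps behind them were not called by the test used below.

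The first step, from T8 to T12, moved few of the genes past the test. A gene is called here when its adjusted p, by limma with Benjamini-Hochberg adjustment over all 17118 genes, was under 0.05. In Abeta worms 0 of the 80 were called by limma, with 20 at an unadjusted p under 0.05, and 0.567% of all genes were called. In GFP worms 0 were called by limma, with 13 at an unadjusted p under 0.05 and 0.479% of all genes called. The grd-7 gene, named after its value was seen, came closest there, at 3.22 ± 1.32 at T12 (SD, n = 5), lower by 1.85 than at T8 on the log2 scale (adjusted p = 0.056).

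In GFP::degron worms 4 genes were lower at T12 than at T8, which is 5% of the 80 where 1.03% of all genes were called lower, and 0 were higher. They were grl-1, grd-14, ptr-23 and ptr-3. The grl-1 gene averaged 5.40 ± 0.384 at T12 (SD, n = 5) and 6.48 ± 0.307 at T8 (n = 4), a fall of 1.08 ± 0.183 (SE, adjusted p = 0.00209), and its groups did not overlap. The patched-related ptr-23 had 9.78, 10.37, 10.28, 9.48 and 9.89 at T12, all below its 11.05, 10.61, 10.61 and 11.16 at T8, and fell by 0.90 ± 0.207 (SE, adjusted p = 0.0189). Of the 4 calls only that of grl-1 was kept in all 9 fits that left out 1 array of these groups. The count was 1 without GFP::degron T12 replicate 4 and 1 without GFP::degron T8 replicate 4.

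From T12 to T16 many more genes changed, and in GFP worms 29 of the 80 were called. Of these, 22 were lower at T16, 27.5% of the 80 where 20.5% of all genes were called lower, and 7 were higher, 8.75% where 16.9% of all genes were called higher. The median of the 80 differences was -0.21, against 0.01 over all genes. So the step was large in the whole measured set. In total 36.2% of the 80 were called, and 6397 of all 17118 genes were, so the 80 were not called more often. Their share was above that of all genes among the falls and below it among the rises, and these differences in share were not tested. The count of 29 ran from 20 to 34 in fits that each left out an array. The groups did not overlap for 16 of the 29, or 55.2%, where they did not for 65.9% of all genes called in this step.

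The largest change of the 80 in this step was the rise of grl-27, a Ground-like gene. It had 11, 10.39, 10.49 and 9.40 in GFP worms at T16, against 6.79, 7.08, 7.5, 7.23 and 7.19 at T12. Every T16 array lay above every T12 array, the difference was 3.16 ± 0.328 (SE, 8.95-fold, adjusted p = 6.89e-08), and the T20 array had 10.69. The call was kept in all 9 fits without 1 array. Another Ground-like gene, grl-30, had 5.84, 5.84, 5.88 and 5.40 at T16 and 3.91, 3.99, 4.12, 3.68 and 3.55 at T12, also without overlap. It rose by 1.89 ± 0.503 (SE, adjusted p = 0.0038), at a low level where the scale understates a change.

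The other rises in GFP worms were of wrt-8, grd-7, wrt-4, wrt-6 and grl-22, secreted proteins of the 3 domain classes. The wrt-8 gene was dim and scattered at T12, with 4.32, 0.72, 3.37, 4.44 and 5.31 against 6.17, 5.54, 5.78 and 4.93 at T16, and its groups overlapped. Its difference of 1.98 ± 0.48 (SE, adjusted p = 0.00176) ranged from 1.25 to 2.40 over fits without 1 array. The calls of wrt-4, wrt-6 and grl-22 rested on single arrays: wrt-4 rose by 1.03 ± 0.406 (SE, adjusted p = 0.0461) and was not called in 4 of 9 such fits, without GFP T12 replicate 1 or 4 or GFP T16 replicate 1 or 3. No patched-related gene was called higher in this step.

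Among the secreted proteins that fell in GFP worms, grd-10 moved furthest. It had 7.83, 7.05, 6.88 and 8.17 at T16, against 9.80, 10.07, 10.49, 9.76 and 9.82 at T12, with no overlap between them. The difference was -2.51 ± 0.351 (SE, 5.68-fold lower, adjusted p = 4.66e-06). The wrt-10 gene was uneven at T16, with 9.66, 7.53, 8.14 and 10.61 against 10.91, 11.51, 11.66, 10.63 and 10.54 at T12. GFP T16 replicates 2 and 3 were the low ones and replicate 4 overlapped with T12, yet the difference of -2.06 ± 0.385 (SE, adjusted p = 0.000134) was called in all 9 fits without 1 array, from -2.61 to -1.58. Also lower were wrt-1, wrt-2, wrt-3, wrt-9, grd-3, grl-4, grl-9, grl-10 and grl-21. Of these, grd-3 and wrt-3 were called in all 9 such fits.

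Receptor-like genes made up 11 of the 22 falls in GFP worms, 10 of 24 ptr genes and ptc-3 of the 2 ptc genes. The ptr-10 gene, known as a marker of glia, had 6.49, 3.50, 4.84 and 7.09 at T16 and 7.56, 8.21, 8.23, 7.45 and 7.20 at T12. Replicates 2 and 3 were again the lowest, the groups did not overlap, and the difference was -2.25 ± 0.418 (SE, adjusted p = 0.000129). The ptr-8 gene fell by 1.56 ± 0.306 (SE, adjusted p = 0.000228) to 7.21 ± 0.558 at T16, against 8.77 ± 0.688 at T12 (SD, n = 4 and 5). The ptr-5, ptr-12, ptr-14, ptr-15, ptr-22 and ptr-25 genes were called in all 9 fits without 1 array as well. Calls of ptr-4, whose product is needed for molting, and of ptr-18 were not.

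PTC-3 is a patched protein that worms need for growth and molting, and ptc-3 had 9.25, 7.71, 8.76 and 8.62 in GFP worms at T16, against 8.54, 10.56, 10.50, 8.67 and 9.75 at T12. Its T12 values split into low replicates 1 and 4 and higher replicates 2, 3 and 5, and the groups overlapped. The difference of -1.02 ± 0.379 (SE, adjusted p = 0.0336) was not called without GFP T12 replicate 2, 3 or 5 or GFP T16 replicate 2 or 4. PTC-1 works in germline cytokinesis, and ptc-1 had 8.78, 9.04, 8.76 and 8.89 at T16 and 8.57, 9.31, 9.46, 8.65 and 9.06 at T12. Its difference was -0.14 ± 0.16 (SE, limma adjusted p = 0.504). A dimmer ptc-1 probe set that was not used moved by -0.82 between these groups. The qua-1 gene, needed for molting, had 9.24, 7.36, 8.09 and 9.06 at T16 and 7.70, 10.26, 10.19, 7.88 and 9.71 at T12, and hog-1, named for its Hog domain, had a mean difference of -0.35. Neither was called (limma adjusted p = 0.203 and 0.355).

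In GFP::degron worms 11 genes were called in the same step. There were 8 lower, 10% of the 80 where 6.93% of all genes were called lower, and 3 higher, 3.75% where 5.4% of all genes were called higher. The wrt-10 gene was even here, with 10.14, 9.90, 10.12 and 10.34 at T16 and 11.53, 11.93, 11.57, 11.67 and 11.41 at T12. Its groups did not overlap and it fell by 1.5 ± 0.385 (SE, adjusted p = 0.0137). The grl-27 gene had 7.89, 9.03, 8.06 and 7.80 at T16 and 6.69, 7.17, 6.92, 6.51 and 6.97 at T12, a rise of 1.34 ± 0.328 (SE, 2.53-fold, adjusted p = 0.0108), again with no overlap. Also lower were wrt-2, ptr-5, ptr-10, ptr-12, ptr-14, ptr-15 and ptr-25, and grd-14 and grl-30 were higher.

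Single arrays decided much of that count in GFP::degron worms. It was 2 without GFP::degron T16 replicate 2, 5 without replicate 3 and 7 without replicate 4, and ptr-5 and ptr-25 were the genes called in all 9 fits that left out 1 array. The calls of wrt-10 and grl-27 were lost only without GFP::degron T16 replicate 2 (adjusted p = 0.0546 and 0.0682). The col-19 gene, a collagen of the adult cuticle, had 9.34 on that array and 4.89 to 5.67 on the other T16 arrays of the strain. Several other stage genes were also at an end of their range there, by smaller gaps. The adult cuticle collagen bli-1 had 5.59, 10.37, 8.98 and 7.57 on replicates 1 to 4, highest on replicate 2. The molting gene nas-37 had 9.29, 7.55, 7.80 and 8.46, lowest on replicate 2. The furrow collagen dpy-7 and the molting gene noah-1 were lowest there too, at 8.85 and 11.21. The molting gene mlt-10 was lowest on replicate 3, with 7.16 against 7.49 on replicate 2. Whether stage differed between these arrays was not tested.

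In Abeta worms 18 genes were called between T12 and T16. There were 17 lower, 21.2% of the 80 where 12.2% of all genes were called lower, and 1 higher, 1.25% where 9.51% of all genes were called higher. The median of the 80 differences was -0.42, against -0.04 over all genes. The receptor-like genes were again the largest group, with 10 ptr genes and ptc-3 among the falls. The ptc-3 gene had 9.35, 8.83, 9.44 and 9.03 at T16 and 10.91, 10.61, 10.53 and 9.96 at T12, without overlap, and fell by 1.34 ± 0.399 (SE, adjusted p = 0.0161).

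The ptr-18 gene, known in worms to act with grl-7 in the epidermis on arrested neural progenitors, had 7.99, 7.89, 8.65 and 7.78 in Abeta worms at T16 and 10.09, 9.38, 9.81 and 8.90 at T12. It fell by 1.47 ± 0.433 (SE, adjusted p = 0.0153). Both ptc-3 and ptr-18 lost the call without Abeta T12 replicate 1, and ptc-3 also without Abeta T16 replicate 2. The wrt-1, wrt-9, grd-1, grl-2, grl-10 and grl-12 genes fell as well, and grl-2 is known from the excretory duct and pore. The grl-30 gene rose by 1.55 ± 0.53 (SE, adjusted p = 0.0345).

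The Abeta count was 8, 9 and 10 without Abeta T12 replicates 1, 2 and 3, and 10, 9 and 11 without Abeta T16 replicates 2, 3 and 4. The 5 genes called in all 8 fits without 1 array were ptr-5, ptr-12, ptr-14, ptr-15 and ptr-25. Over the 3 strains 36 of the 80 genes, or 45%, were called in this step in at least 1, and so were 44.5% of all genes. In all 3 strains 6 were called, 7.5% where 6.45% of all genes were, so neither share stands out from that of all genes. Of the 6, ptr-5, ptr-12, ptr-14, ptr-15 and ptr-25 were lower and grl-30 was higher in each strain. The ptr-5 gene had 4.92, 4.66, 4.77 and 5.12 at T16 and 5.84, 6.12, 6.21 and 5.69 at T12 in Abeta worms. In GFP::degron worms it had 5.90, 5.10, 5.01 and 4.93 at T16 and 6.70, 6.09, 6.28, 6.52 and 6.36 at T12, and in GFP worms 4.35, 4.26, 4.78 and 5.12 at T16 and 5.87, 6.38, 5.92, 5.68 and 5.28 at T12. None of the 3 pairs overlapped.

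**Figure D2:**
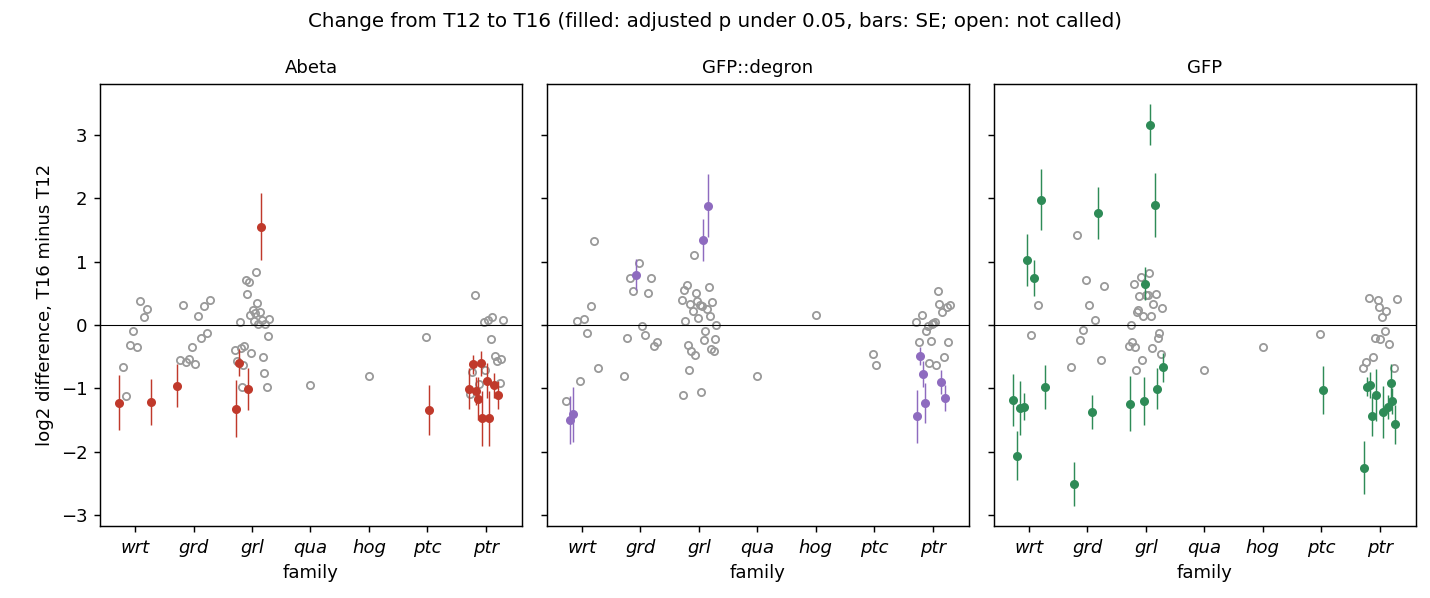
Log2 difference of each gene between T16 and T12 (vertical axis) by family (horizontal axis) in Abeta, GFP::degron and GFP worms. Filled points with SE bars are the 18, 11 and 29 called genes and open points were not called. All called ptr and ptc points lie below 0 and grl-27 in GFP worms is the highest point, at 3.16.

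Stage genes moved with this step. The col-19 gene had 6.03 to 9.43 in Abeta, 4.89 to 9.34 in GFP::degron and 9.79 to 11.75 in GFP worms at T16, and 3.89 to 5.56, 3.06 to 5.43 and 4.38 to 6.20 at T12 in the same order. GFP T16 replicates 2 and 3, the low ones for wrt-10 and ptr-10, had the molting gene noah-1 at 8.92 and 9.84. Replicates 1 and 4 had it at 11.37 and 11.58. On replicates 2 and 3 col-19 was highest, at 11.75 and 11.47, but bli-1 was lowest, at 9.53 and 10.57. Of a list of 30 molting genes 12 were lower and 2 higher at T16 in Abeta worms, 7 and 2 in GFP::degron worms, and 19 and 2 in GFP worms. Their mean level per array ran from 8.44 to 8.87 in Abeta, 8.43 to 8.79 in GFP::degron and 7.29 to 8.48 in GFP worms at T16. Of 7 measured germline markers 4 rose in Abeta worms, 0 in GFP::degron worms and 6 in GFP worms. Their part in the changes of the 80 genes was not tested.

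Markers of other tissues moved in the same step. Of 8 glial markers, a list that holds ptr-10 itself, 4 were lower in Abeta, 3 in GFP::degron and 5 in GFP worms. Of 8 neuronal markers 4, 1 and 7 were lower, of 7 intestinal markers 1, 0 and 3, and of 7 muscle markers 0, 3 and 1, in the same order of strains. Of 10 epidermal markers 5, 4 and 7 were lower, and col-19, which is on that list, was called higher in Abeta and GFP worms. Of all the lists given here, grh-1 of the molting list, spe-11 of the germline list and vit-2 of the adult list had means under 4. The part of these tissues in the changes of the 80 genes was not tested.

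The strains were compared at each of the 3 replicated times, and the most calls among the 80 genes were made at T16 between GFP::degron and GFP worms. There 17 genes were higher in GFP::degron worms, 21.2% of the 80 where 10.9% of all genes were called higher. Only 3 were lower, 3.75% where 10% of all genes were called lower. The median difference was 0.40, against 0.05 over all genes. The groups did not overlap for 13 of the 20, or 65%, where they did not for 76.2% of all genes called in this comparison.

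This comparison shares its GFP T16 arrays with the step in GFP worms described above, so agreement between them is not given as a result. The grd-10 gene had 9.45, 8.98, 10.44 and 9.94 in GFP::degron worms, against 7.83, 7.05, 6.88 and 8.17 in GFP worms, with no overlap. It was higher by 2.22 ± 0.37 (SE, 4.66-fold, adjusted p = 0.000138). The grl-21 gene had 10.55, 10.17, 11.34 and 10.92 in GFP::degron worms and 7.90, 9.40, 9.44 and 9.18 in GFP worms, a difference of 1.77 ± 0.397 (SE, adjusted p = 0.00215). The patched-related ptr-8 averaged 8.93 ± 0.297 in GFP::degron worms and 7.21 ± 0.558 in GFP worms (SD, n = 4 each), a difference of 1.73 ± 0.323 (SE, adjusted p = 0.000426). Both of these pairs were also without overlap.

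The others called higher in GFP::degron worms at T16 were ptr-1, ptr-3, ptr-5, ptr-6, ptr-10, ptr-22, ptr-25, wrt-3, wrt-10, grd-3, grl-1, grl-4, grl-9 and grl-12. GFP T16 replicates 2 and 3 were low here too, since wrt-10 had 10.14, 9.90, 10.12 and 10.34 in GFP::degron worms and 9.66, 7.53, 8.14 and 10.61 in GFP worms. Its difference of 1.14 ± 0.406 (SE, adjusted p = 0.0437) was not called in 5 of 8 fits without 1 array, with a lowest value of 0.65.

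The 3 genes lower in GFP::degron worms at T16 were grl-27, wrt-4 and wrt-6. The grl-27 gene had 7.89, 9.03, 8.06 and 7.80 in GFP::degron worms, against 11, 10.39, 10.49 and 9.40 in GFP worms, and was lower by 2.13 ± 0.345 on the log2 scale (4.37-fold, adjusted p = 0.000101). The wrt-4 gene had 8.44, 8.84, 7.37 and 7.74 in GFP::degron worms and 10.76, 9.29, 9.72 and 8.88 in GFP worms, a difference of -1.56 ± 0.428 (SE, adjusted p = 0.00937). Neither pair overlapped, whereas the wrt-6 groups did, with a difference of -0.93.

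Of the 20 calls, 9 were kept in all 8 fits without 1 array: grd-3, grd-10, grl-9, grl-21, grl-27, ptr-8, ptr-25, wrt-3 and wrt-4. The count was 11 without GFP::degron T16 replicate 1, 11 without replicate 3 and 13 without replicate 4. Stage genes differed in the same comparison: of 4 adult markers 3 were lower in GFP::degron worms, and col-19 did not overlap between the strains. Of the 30 molting genes 12 were higher and 1 lower, of the 7 germline markers 6 were lower, and of the glial and neuronal markers 4 and 6 were higher. Of the 10 epidermal markers 3 were higher and 1, col-19, was lower. Their part in the differences of the 80 genes was not tested.

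**Figure D3:**
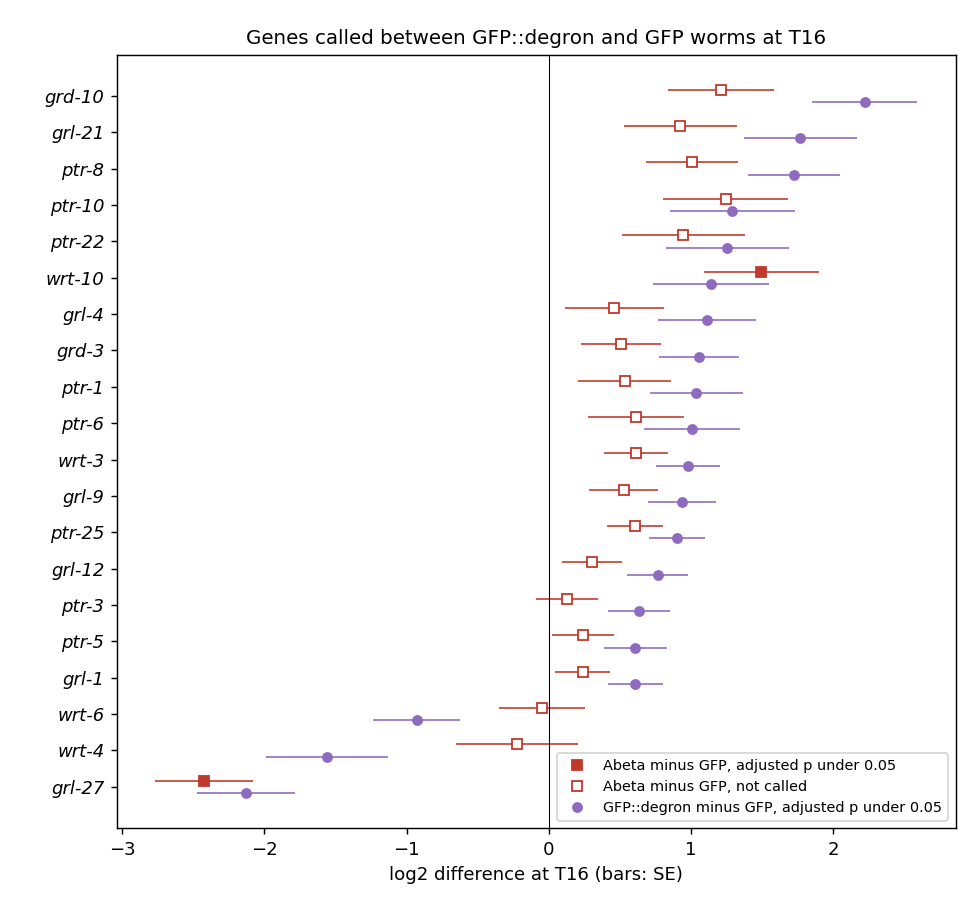
Log2 difference at T16 (horizontal axis, bars are SE) for the 20 genes called between GFP::degron and GFP worms, with squares for Abeta minus GFP and circles for GFP::degron minus GFP. Filled symbols have an adjusted p under 0.05. The grl-27 symbols lie lowest in both comparisons, which share the 4 GFP arrays.

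Abeta worms at T16 were compared with GFP worms in the same way, and 2 genes were called. The grl-27 gene had 7.11, 8.35, 8.94 and 7.19 in Abeta worms, against 11, 10.39, 10.49 and 9.40 in GFP worms, without overlap. It was lower by 2.42 ± 0.345 on the log2 scale (5.36-fold, adjusted p = 0.000228), and the call was kept in all 8 fits without 1 array. The wrt-10 gene was higher by 1.49 ± 0.406 (SE, adjusted p = 0.0436), with 10.67, 10.50, 10.07 and 10.69 in Abeta worms and overlap with GFP T16 replicate 4, and 5 of 8 such fits lost it. These were 1.25% of the 80 in each direction, where 0.824% of all genes were called higher and 1.37% lower.

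The median difference of the 80 genes between Abeta and GFP worms at T16 was 0.17, against 0 over all genes. The count was 1 without Abeta T16 replicate 1, 2 or 4 or GFP T16 replicate 2 or 3, 6 without GFP T16 replicate 4 and 8 without Abeta T16 replicate 3. Adult markers differed here too, with 2 of 4 lower in Abeta worms, as did 3 of 7 germline markers, also lower, and 3 of 30 molting genes, which were higher. Whether those differences take part in the grl-27 difference was not tested. Between Abeta and GFP::degron worms at T16, 0 of the 80 were called by limma, with 10 at an unadjusted p under 0.05, and 0.14% of all genes were called.

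The change of grl-27 over T8 to T16 differed between the strains in the test of strain by time. By limma's F test over the 4 interaction terms its adjusted p was 0.0465, the only call among the 80, or 1.25%, where 0.327% of all genes were called. Another 12 members reached an unadjusted p under 0.05 without a call, led by grd-10 (adjusted p = 0.103) and wrt-3 (adjusted p = 0.146). The grl-27 call was kept in 7 of 37 fits that left out 1 array, with adjusted p up to 0.178 in the others. It was also lost with GFP T8 replicate 3 kept (limma adjusted p = 0.11), on the deposited scale (0.083), after quantile normalization (0.0663) and with the mean over probe sets (0.0504).

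**Figure D4:**
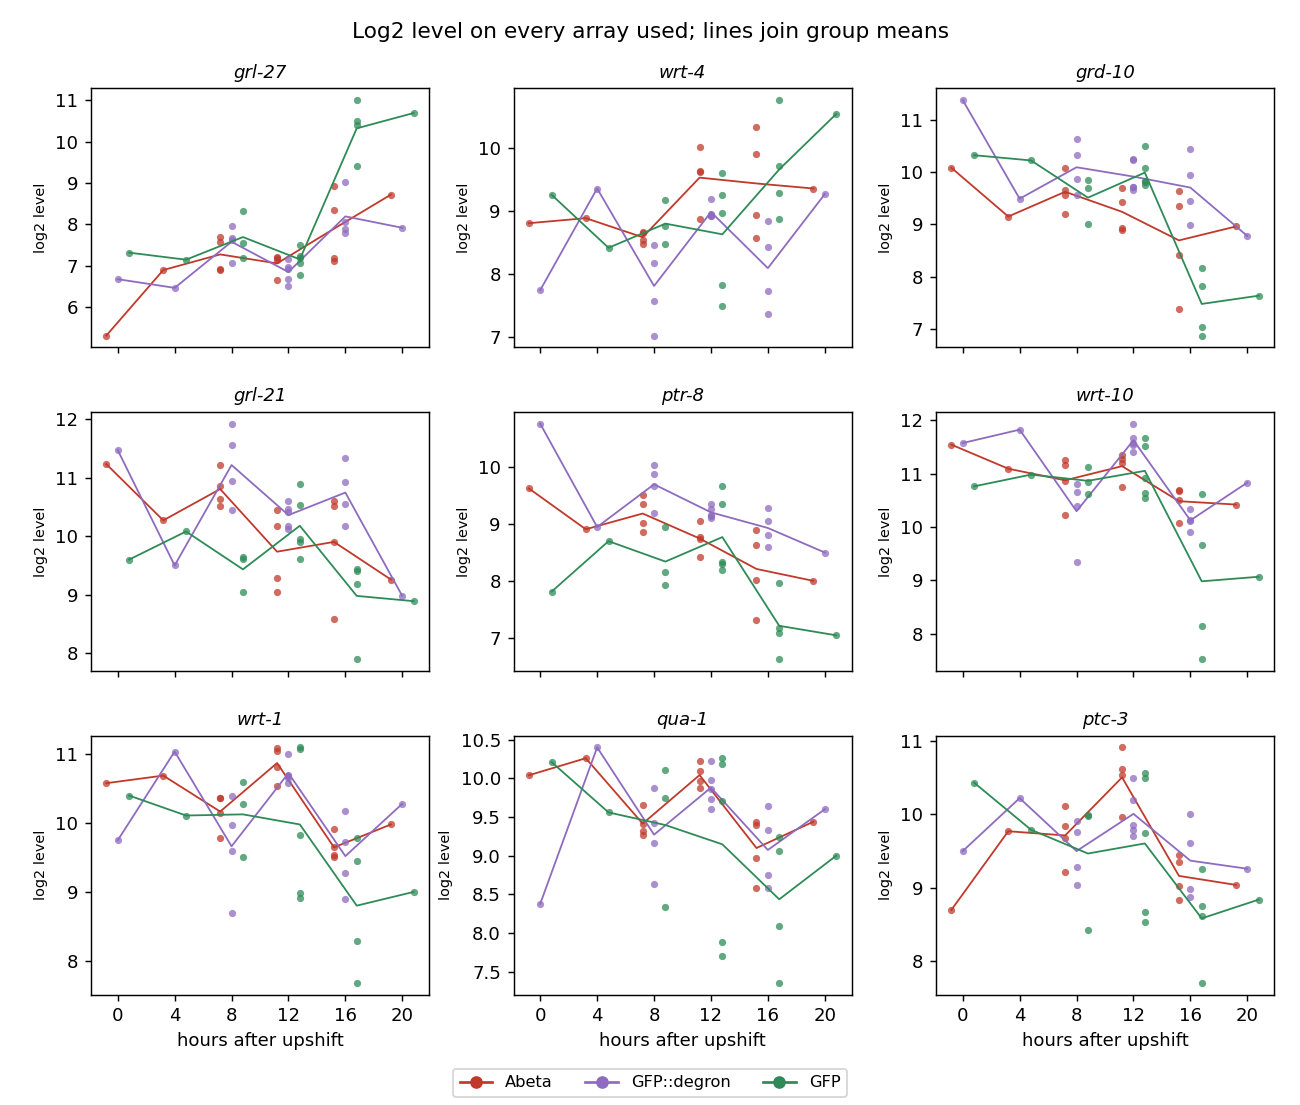
Log2 level on every array used (points; 46 arrays) against hours after the upshift for grl-27, wrt-4, grd-10, grl-21, ptr-8, wrt-10, wrt-1, qua-1 and ptc-3, coloured by strain (Abeta, GFP::degron, GFP), with lines through group means. The 4 GFP points of grl-27 at T16 lie from 9.40 to 11, above every Abeta and GFP::degron point, and wrt-1, qua-1 and ptc-3 split at T12 in GFP worms.

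Earlier times gave few strain differences. At T12 between Abeta and GFP worms 0 of the 80 were called by limma, although 28 had an unadjusted p under 0.05, and 0.0643% of all genes were called. The median difference of the 80 was 0.34 (0.03 over all genes). Of the 80, 63 were higher in Abeta worms, where 54.9% of all genes were. Genes on the same arrays do not vary independently, and this share was not tested. This comparison holds the split GFP T12 group: wrt-1 had 11.09, 10.81, 11.05 and 10.54 in Abeta worms and 8.91, 11.10, 11.08, 8.99 and 9.82 in GFP worms, so that GFP replicates 2 and 3 were as high as Abeta worms and 1 and 4 were lower. The GFP replicates 1 and 4 also had bli-1, a collagen of the adult cuticle, at 9.30 and 8.42, and replicate 5 at 9.13. Replicates 2 and 3 had it at 3.80 and 3.56. At T8 bli-1 had 5.74, 10.09 and 9.09 on GFP replicates 1, 2 and 4. The col-19 gene went the other way at T12, with 4.38 and 4.55 on GFP replicates 1 and 4. It had 4.96, 5.64 and 6.20 on replicates 2, 3 and 5. All these values lay below the 9.79 to 11.75 of GFP worms at T16. The molting gene nas-37 had 8.18 on both GFP T12 replicates 1 and 4, and 9.94 and 10.14 on replicates 2 and 3. Likewise noah-1 had 11.59 and 11.42, against 12.26 and 12.29. The mlt-10, dpy-7 and lin-26 genes were also lower on replicates 1 and 4 than on 2 and 3, whereas elt-3 was not. Whether stage differed between these arrays was not tested. At T8 between Abeta and GFP worms 0 were called by limma, with 5 at an unadjusted p under 0.05 and 0% of all genes called.

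Between GFP::degron and GFP worms at T12, 0 of the 80 were called by limma, with 9 at an unadjusted p under 0.05 and 0.129% of all genes called. At T8, 0 were called by limma, with 15 at an unadjusted p under 0.05 and 0.386% of all genes called. The grl-21 gene came nearest at T8, with 11.56, 10.44, 10.94 and 11.92 in GFP::degron worms and 9.64, 9.61 and 9.05 in GFP worms, a difference of 1.78 (adjusted p = 0.0527), and its groups did not overlap. Between Abeta and GFP::degron worms 0 were called by limma at T8, with 8 at an unadjusted p under 0.05 and 0.123% of all genes called. At T12, 0 were called, with 12 at an unadjusted p under 0.05 and 0.327% of all genes called.

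GFP::degron worms at T16 were also set against GFP worms at T12, a comparison added after the values were seen, since col-19 ranged from 4.89 to 9.34 in the first and from 4.38 to 6.20 in the second. Only 3 of the 80 were called, wrt-8 and grd-7 higher and ptr-12 lower, which is 2.5% higher and 1.25% lower where 1.8% and 4.15% of all genes were called. The difference in wrt-8 was 1.68 ± 0.48 (SE, adjusted p = 0.0344) and that of grd-7 1.54 ± 0.416 (SE, adjusted p = 0.0268), and both groups overlapped. The difference in ptr-12 was -0.57 ± 0.147 (SE, adjusted p = 0.0223). The count was 11 when GFP T12 replicates 1 and 4 were left out. It was 7 without GFP::degron T16 replicate 1, 1 without replicate 2 or 3 and 0 without replicate 4, and 1, 1 and 6 without GFP T12 replicates 2, 3 and 5.

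The outer times had 1 array per strain, so the 3 strains served as replicates of a time. Between T20 and T0 over the strains 19 genes were called, 16 lower, 20% of the 80 where 24.2% of all genes were called lower, and 3 higher, 3.75% where 12.7% were called higher. The shares were thus not above those of all genes. The median difference was -0.32 over the 80 genes and -0.34 over all genes, of which 31.9% had a difference above 0. Marker lists moved in the same comparison: 10 of 30 molting genes were lower and 2 higher, 7 of 10 epidermal markers were lower and 1 higher, and 6 of 8 glial, 7 of 8 neuronal, 2 of 7 intestinal and 4 of 7 muscle markers were lower. All 4 adult markers and 6 of 7 germline markers were higher, and the part of these in the changes of the 80 genes was not tested. The ptr-5 gene had 4.37 in Abeta, 5.5 in GFP::degron and 4.77 in GFP worms at T20, against 6.15, 7.26 and 6.65 at T0 in the same order, and fell in each. Its difference was -1.81 ± 0.158 (SE, adjusted p = 0.000642).

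The grl-27 gene had 8.72 in Abeta, 7.92 in GFP::degron and 10.69 in GFP worms at T20, against 5.32, 6.68 and 7.32 at T0, higher in all 3 strains. Its difference was 2.66 ± 0.532 (SE, adjusted p = 0.0102) and it was not called without the Abeta or without the GFP strain. The grd-10 gene was lower at T20 in all 3 strains, with 8.96, 8.78 and 7.64 against 10.08, 11.37 and 10.32. The count of 19 was 8 without the GFP strain and 3 without the Abeta strain, and ptr-5 and ptr-25 were the 2 calls kept without any 1 strain. Between T4 and T0 over the strains 0 were called by limma, with 4 at an unadjusted p under 0.05 and 0% of all genes called.

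Within a strain and time some of the genes varied together and others did not. The deviation of each array from the mean of its strain and time was correlated between the 33 genes with a mean log2 level of at least 7.5, over 37 arrays of T8, T12 and T16, as a description. Genes on the same array share its worms, RNA and hybridisation, so correlations between genes are not independent. The median r was 0.36 over 528 pairs, against 0.21 over the pairs of all 6124 genes at that level. Of the 528 pairs 72, or 13.6%, had an r over 0.8, whereas 0.563% of the pairs of all genes did. Another 14, or 2.65%, had an r under -0.4, where 2.98% of the pairs of all genes did. Without the GFP T12 arrays, 42 of the 528 pairs, or 7.95%, had an r over 0.8 over 32 arrays, against 0.483% of the pairs of all genes.

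Pairs with high r, named after the values were seen, were found among the wrt-1, wrt-2, qua-1, hog-1, grl-5, grl-7, grl-10, grl-15, ptc-3, ptr-1, ptr-2, ptr-4, ptr-6, ptr-11, ptr-14, ptr-15 and ptr-18 genes. The wrt-1 and wrt-2 deviations had r = 0.96, qua-1 and ptr-11 had r = 0.96, grl-7 and grl-15 had r = 0.94, and ptc-3 and ptr-18 had r = 0.92. Without GFP T12 these were 0.96, 0.94, 0.90 and 0.89. The grd-3 and grd-10 deviations had r = 0.86, and neither had an r over 0.31 with any of that set. Other pairs with high r were wrt-4 with wrt-6 (r = 0.91) and grd-5 with grd-14 (r = 0.87). The lowest r over the 37 arrays was -0.57, for grl-27 with ptr-8 and for wrt-4 with grd-3. Pairs with an r under -0.4 were no more frequent among these genes than among all genes.

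**Figure D5:**
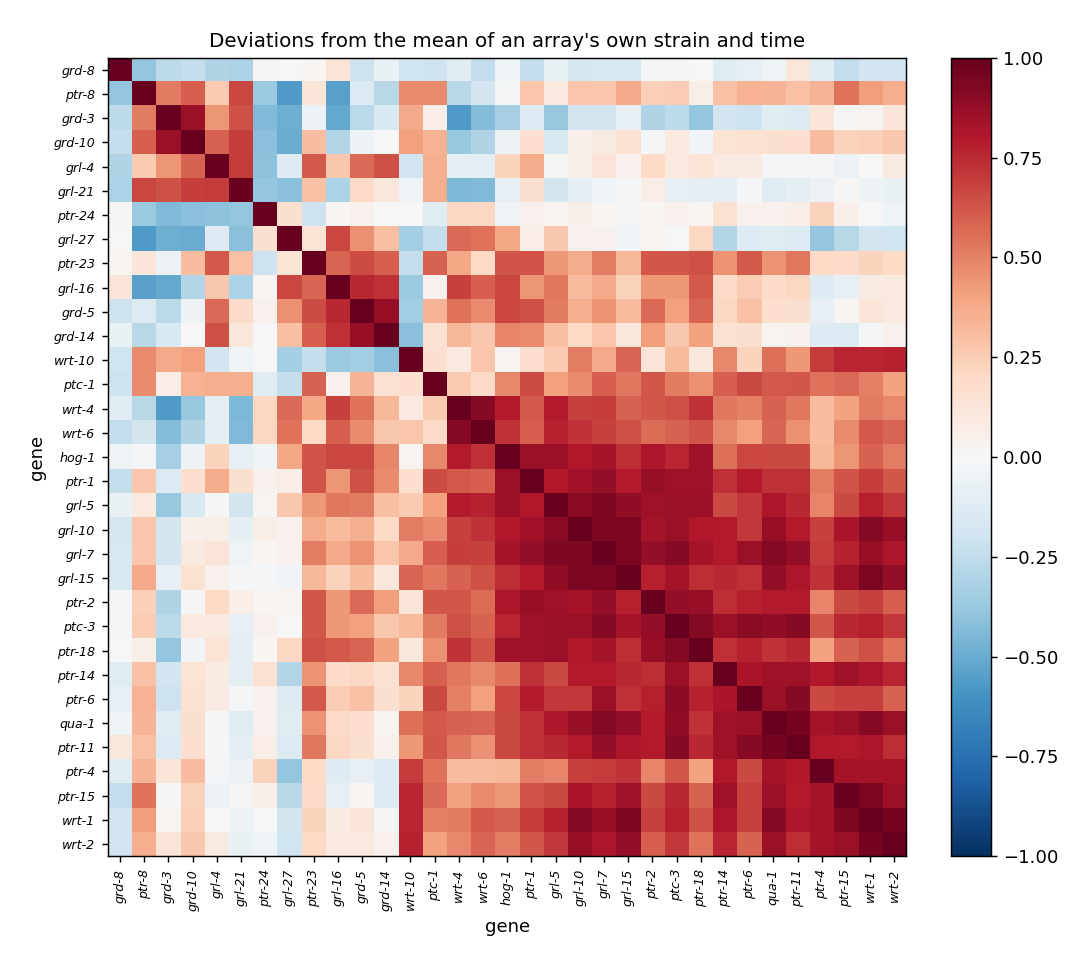
Pearson correlation (colour, from -1 to 1) between 33 genes, along both axes, of the deviations from the mean of an array's strain and time over 37 arrays. A dark red block holds wrt-1, wrt-2, qua-1, grl-7, ptc-3 and their neighbours, and grd-3 with grd-10 (r = 0.86) lies outside it.

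Genes outside the 80, listed as neighbours of the hedgehog pathway or of sterol sensing, changed in part in the T12 to T16 step. The list includes sterol-sensing and cholesterol-handling proteins, a hedgehog-pathway factor related to Gli (tra-1) and general kinases such as gsk-3. Whether they act with the 80 genes in these worms was not tested. Of 17 measured neighbours 5 were lower and 1 higher in Abeta worms. In GFP::degron worms 2 were lower and 0 higher, and in GFP worms 7 and 1. The daf-6 gene, whose patched-related product shapes glial channels, differed by -1.49 ± 0.363 (SE, adjusted p = 0.00178) in GFP worms, and ncr-2, which encodes a Niemann-Pick type C protein, by 2.26 ± 0.649 (SE, adjusted p = 0.00681). The che-14 gene, which encodes a protein related to Dispatched, the hedgehog exporter, differed by -0.93 ± 0.307 (SE, adjusted p = 0.0171).

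Between GFP::degron and GFP worms at T16, 3 of the 17 were higher and 1 lower. They were che-14 with 0.89, scp-1 with 0.56 and gpn-1, a glypican, with 1.02, and ncr-2 was lower by 1.93 on the log2 scale. Of 15 measured collagens of body shape and cuticle furrows, 8 were lower in Abeta, 5 in GFP::degron and 5 in GFP worms between T12 and T16, and 0 were higher. Furrow and shape collagens are laid down in each molt, and their lists were chosen with the results of these data known.

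Where a gene had several probe sets, the brightest was used, and the others differed in part. For 12 genes more than 1 probe set named the gene alone. The unused wrt-9 set moved by 0.68 between T12 and T16 in GFP worms, where the used one moved by -0.98, so the call of wrt-9 rests on 1 probe set. The 3 ptr-2 sets differed by 0.29, 0.07 and -0.96 in that step, and the sets of ptr-4, ptr-6, ptr-11, ptr-23 and grl-7 shared a sign in GFP worms. Of the 80 used sets, 25 end in _s_at and 2, those of ptr-11 and grd-16, in _x_at, suffixes that mark probes which may match more than 1 transcript. The 25 are those of wrt-2, wrt-3, wrt-4, wrt-5, wrt-8, wrt-10, grl-4, grl-5, grl-7, grl-9, grl-16, grl-20, grl-29, qua-1, ptc-3, ptr-2, ptr-3, ptr-5, ptr-6, ptr-8, ptr-14, ptr-18, ptr-23, ptr-24 and ptr-25.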

How the data were processed

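RNA of 3 strains was measured on 47 Affymetrix arrays. For 22625 probe sets the authors deposited 1 intensity each per array, on a linear scale. The submitters' processing notes name Affymetrix Expression Console 1.1, and no source used here gives its summary algorithm or any scaling of the arrays. The authors took no log2 step, as the deposited values show. In the platform annotation 20766 probe sets name 1 gene, 887 several and 895 none, and 77 control sets were left out. The symbols of all 80 genes matched the RefSeq table of WBcel235.

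Here log2(intensity + 1) was centred on each array's median, each gene was represented by its brightest probe set, and GFP T8 replicate 3 was left out as dim. With limma 3.58.1 in R 4.3.3, 9 group means were fitted on 37 arrays (28 residual degrees of freedom), covering the replicated times. The other times were fitted as strain plus time on 9 arrays (4 residual degrees of freedom). Tables and plots used python 3.11.15 (pandas 2.3.3, numpy 2.4.6, matplotlib 3.10.9). The fits were tested on simulated data.

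The number of arrays limits the precision. The labels call samples of a strain and time biological repeats and say nothing of separate cultures, so p-values measure the spread between these samples. By the naming rule, any of the 80 genes could be named. Values were given for up to 4 called higher and 4 called lower genes by size in a comparison, up to 8 in the interaction, a list of ptc, wrt, grd, grl and ptr genes of known interest, and up to 4 genes of each other list, with values by array for genes the results turn on. The genes, lists and tests were chosen with earlier results of these data known. Alternatives were the deposited scale, quantile normalization, the pseudocount, a filter on dim genes, the mean over probe sets, the dim array kept, a replicate block, and fits without each array. A planned search of promoter motifs was not run.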

Additional observations from a re-analysis of the deposited data

Results flagged for a closer look

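In 160 combinations of a gene with a group of 4 or 5 arrays, over 20 of the genes, 9 single values lay far from the others of their group. Chance would give about 1 in 20 if the combinations were independent, which is nearly as many. Genes on the same array are not independent, and Abeta T12 replicate 4 and GFP::degron T12 replicate 2 each held several of the 9 values. The grl-27 gene had 6.67 in Abeta T12 replicate 4 and 7.15 to 7.22 in the others. The same array had wrt-6 at 7.91, against 8.74 to 8.91, and grl-7 at 11.45, against 11.95 to 12.02. The grl-7 gene had 10.52 in Abeta T16 replicate 4, against 10.96 to 11.04. GFP::degron T12 replicate 2 had wrt-1 at 11, against 10.58 to 10.70, and wrt-4 at 9.2, against 8.92 to 8.96. The dim grl-30 gene had 0.12 on that array, against 3.01 to 3.87, 2.55 in GFP::degron T8 replicate 1, against 4.35 to 4.64, and 5.40 in GFP T16 replicate 4, against 5.84 to 5.88.

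The course of grl-27 over T8 to T16 differed between the 3 strains in limma's interaction test (adjusted p = 0.0465). The call was lost in 30 of 37 fits without 1 array, and under 4 processing alternatives the adjusted p ran from 0.0504 to 0.11.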

How the results depend on the processing

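Over the alternatives run, 0 of the called genes changed sign. Counts of called genes moved as follows. Keeping GFP T8 replicate 3 gave 8 for GFP T12 minus T8, 4 for GFP::degron minus GFP at T8 and 0 in the interaction. The deposited scale, on which the median of all genes lay 0.13 above 0 in GFP::degron T16 minus T12 and in GFP::degron minus GFP at T16, and 0.16 in GFP::degron T16 minus GFP T12, gave 5 for GFP::degron minus GFP at T8, 5 for GFP::degron T16 minus GFP T12, 0 in the interaction and 9 for T20 minus T0. Quantile normalization gave 1 for GFP T12 minus T8, 1 and 6 for Abeta minus GFP at T12 and T16, 5 for GFP::degron minus GFP at T8 and 0 in the interaction. A pseudocount of 16 gave 1 for GFP and Abeta T12 minus T8, 2 for GFP::degron minus GFP at T8, 5 for GFP::degron T16 minus GFP T12 and 2 in the interaction. Genes with a mean of at least 6 gave 1 for Abeta T12 minus T8, 3 for GFP::degron minus GFP at T8, 1 for Abeta minus GFP::degron at T12 and 2 in the interaction. The mean over probe sets gave 1 for Abeta T12 minus T8 and 0 in the interaction. Leaving out GFP T12 replicates 1 and 4 together, an alternative chosen after seeing the data, gave 2 for GFP T12 minus T8, 1 for Abeta minus GFP at T12 and 11 for GFP::degron T16 minus GFP T12. The cause was not tested.

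With replicate number as a replicate block the counts were 5, 9 and 1 for GFP, GFP::degron and Abeta T12 minus T8, 1 for Abeta minus GFP at T16, 1 for Abeta minus GFP::degron at T12, 8 for GFP::degron T16 minus GFP T12 and 2 in the interaction. The labels do not say that a number marks shared worms or a shared batch, so the arrays were not taken as paired. Of 137 pairs of arrays with the same number 51 had a correlation of deviations over 0.1 (mean 0.038, from -0.586 to 0.49), with a mean of -0.01 for different numbers. As a hint from the data, 20 of 37 arrays correlated best with their own number. Without the block the T12 minus T8 count was 4 for GFP::degron and 0 for both other strains.

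Without 1 array the counts ran from 20 to 34 for GFP T16 minus T12, 2 to 14 for GFP::degron T16 minus T12, 8 to 23 for Abeta T16 minus T12, 11 to 24 for GFP::degron minus GFP at T16 and 1 to 8 for Abeta minus GFP at T16. They ran from 0 to 6 for GFP T12 minus T8 (6 without GFP T12 replicate 5, 1 without replicate 1 or 4), 1 to 5 for GFP::degron T12 minus T8, 0 to 5 for Abeta T12 minus T8 (5 without Abeta T12 replicate 4), 0 to 2 for GFP::degron minus GFP at T8 (1 and 2 without GFP::degron T8 replicates 2 and 3), 0 to 1 for Abeta minus GFP at T12 (1 without GFP T12 replicate 3 or Abeta T12 replicate 4), 0 to 1 for Abeta minus GFP::degron at T12 (1 without Abeta T12 replicate 4 or GFP::degron T12 replicate 5) and at T16 (1 without GFP::degron T16 replicate 2), 0 to 7 for GFP::degron T16 minus GFP T12, 0 to 3 in the interaction (3 without Abeta T16 replicate 3, 2 without GFP T16 replicate 4 or GFP::degron T16 replicate 2) and 3 to 16 for T20 minus T0 without 1 strain.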
